A study of Homo sapiens with 6 samples.

Results

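The 46 genes described here encode the machinery that starts and runs DNA replication, from the complexes that mark an origin to the enzymes that close the nicks behind the fork. They were taken from a fixed list of symbols. The list applies no cut on measured values, but it was chosen with earlier results of these data known. All 46 were found among the 23368 gene symbols of the count tables and passed the filter on low counts, which left 13209 genes. RNA was sequenced from NB4, a human line established from acute promyelocytic leukemia, in 2 groups of 3 libraries each. Not treated (n.t.) cells were kept in medium without the compound, and maltonis-treated cells received 10 µM maltonis, a synthetic hydroxypyrone derived from maltol, for 24 h. Both groups are bulk cultures of the same line at a single dose and a single time, so the values hold for this line only. A changed share of cells in S phase and a changed RNA level per cell cannot be told apart. The study examined the cell cycle of NB4 cells at 10 µM maltonis and mentions a G2/M arrest. In background terms, the origin recognition complex (ORC) binds origins, CDC6 and CDT1 then load the ring-shaped MCM2-7 helicase in G1 phase, and geminin blocks CDT1 once S phase has begun. The kinase CDC7-DBF4, known as DDK, together with cyclin-dependent kinase activity turns the loaded ring into the active CMG helicase (CDC45, MCM2-7 and GINS). Polymerase alpha-primase then lays down primers, the clamp loader RFC places the sliding clamp PCNA on them, polymerases delta and epsilon copy the strands, RPA covers single-stranded DNA, and FEN1 and LIG1 finish the Okazaki fragments.

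The n.t. libraries held 19385279 to 38205483 counts and the maltonis-treated ones 18492154 to 32229832, so that 3 counts corresponded to 0.0828 to 0.160 CPM (counts relative to the total of the library after TMM scaling, which corrects the totals for composition). The lowest count of any of the 46 genes in any library was 271, far above that floor, which covers counting error only. Replicate 1 of each group carried another code in its library name (A) than replicates 2 and 3 (B), and it stood apart over all genes: the chi-square per degree of freedom was 21.9 and 33.1 against replicates 2 and 3 in n.t. cells, beside 10.8 between these, and 13.0 and 15.7 beside 4.15 in maltonis-treated cells. Among the 46 genes, its n.t. library differed from the mean of the others by −0.75 for RPA1, −0.58 for MCM6, −0.48 for POLE, −0.29 for MCM4 and 0.31 for RECQL4 on the log2 scale, and its treated library by −0.47, −0.41, 0.05, −0.11 and 0.24. Of 11 promyelocytic and myeloid marker genes, MPO lay at 12892 to 15528 CPM in n.t. cells and at 7298 to 7553 CPM after maltonis, while ELANE was at or under 0.166 CPM in n.t. cells and at 14.5 to 21.0 CPM after maltonis. Of 8 markers of other cell types, MS4A1 and HBB had no count, CD3E, PPBP, ALB and COL1A1 stayed under 0.5 CPM in every library, and CD3D (42.9 to 44.8 against 14.9 to 15.8 CPM) and EPCAM (16.0 to 17.6 against 10.2 to 12.8 CPM) were lower after maltonis. The summed level of CD3D and EPCAM, the only 2 of these 8 markers that passed the filter on low counts, was 59.6 to 62.4 CPM in n.t. and 25.1 to 28.0 CPM in maltonis-treated cells, and their part in the results was not tested.

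Genes of this machinery are known for E2F sites near their start, through which they are transcribed at the entry into S phase. RefSeq promoter windows (GRCh38.p14) were matched for 39 of the 46 genes, and 12 of these 39 (30.8%) held TTTCCCGC, TTTCGCGC, TTTGCCGC or TTTGGCGC on either strand within 250 bases before the annotated start, where overlapping matches were counted separately. The share among all 27305 promoters of that length was 2.79%. Within 150 bases, the shares were 28.2% and 1.82%. The stretches below are shown because they belong to the genes with such a word whose RNA changed most in either direction. Each is written 5′ to 3′ on the strand of its gene with the word in capitals, and positions count back from the annotated start, so that −1 is the last base before it.
CDT1, chr16:88803734-88803781, + strand, word at −35: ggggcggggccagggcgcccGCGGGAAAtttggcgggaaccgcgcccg
POLA2, chr11:65261889-65261936, + strand, word at −53: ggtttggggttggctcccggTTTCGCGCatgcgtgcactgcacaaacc
GINS2, chr16:85688958-85689005, − strand, word at −31: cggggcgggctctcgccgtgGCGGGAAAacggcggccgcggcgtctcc
POLA1, chrX:24693761-24693808, + strand, word at −137: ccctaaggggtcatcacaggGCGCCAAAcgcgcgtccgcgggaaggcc
MCM3, chr6:52284889-52284936, − strand, word at −174: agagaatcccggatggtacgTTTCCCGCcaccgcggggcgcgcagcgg
MCM7, chr7:100101398-100101604, − strand, words at −187 and −9: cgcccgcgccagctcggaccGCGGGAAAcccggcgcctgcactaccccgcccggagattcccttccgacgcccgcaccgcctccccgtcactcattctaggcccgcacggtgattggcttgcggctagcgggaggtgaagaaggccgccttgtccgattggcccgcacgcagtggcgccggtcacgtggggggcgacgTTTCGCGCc

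After maltonis, 16 of the 46 genes were downregulated, 12 were upregulated and 18 did not pass the threshold (edgeR's quasi-likelihood test, Benjamini-Hochberg adjusted p, here FDR, under 0.01 over all 13209 genes). Among all genes tested, 32.1% were lower and 31.9% were higher, so the shares of 34.8% lower and 26.1% higher among the 46 genes lay near the background. They lay as near to it among the 6656 genes with a mean level at or above that of the lowest of the 46, of which 36.6% were lower and 27.9% higher. The median log2 fold change was −0.09, beside 0.01 over all genes tested. Changes were under 1 in size on the log2 scale for 42 of the 46 genes (91.3%), beside 70.1% of all genes, and the median size was 0.37 beside 0.59. The groups did not overlap for 33 of the 46 genes, beside 76.6% of all genes. Only POLD2 and GINS3 fell, and only GINS4 rose, by more than 2.5-fold with an FDR under 0.01, a criterion that 10.4% (lower) and 9.95% (higher) of all genes met. GINS4 came to lie just under that fold without maltonis replicate 3, which left 2 genes. The summed level of the 46 genes was 9468 to 9700 CPM in n.t. and 8610 to 8722 CPM in maltonis-treated cells. The most abundant genes weigh most in this sum. By step, the sums under TMM scaling were lower for MCM2-7, polymerases delta and epsilon, and Okazaki fragment maturation. Most of the fall for polymerases delta and epsilon was that of POLD2 (mean 442 CPM in n.t. and 93.5 CPM in treated cells). Neither gene of Okazaki fragment maturation passed the threshold. With total counts, the log2 fold changes of FEN1 and LIG1 were 0.07 and −0.07. The sums were higher for licensing, polymerase alpha-primase, the clamp with its loader, and RPA, and they overlapped for the other steps. In licensing, only CDT1 was upregulated, while CDC6 was downregulated. In RPA, only RPA2 was upregulated, while RPA1 and RPA3 had log2 fold changes of −0.25 and −0.21.

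**Figure D1:**
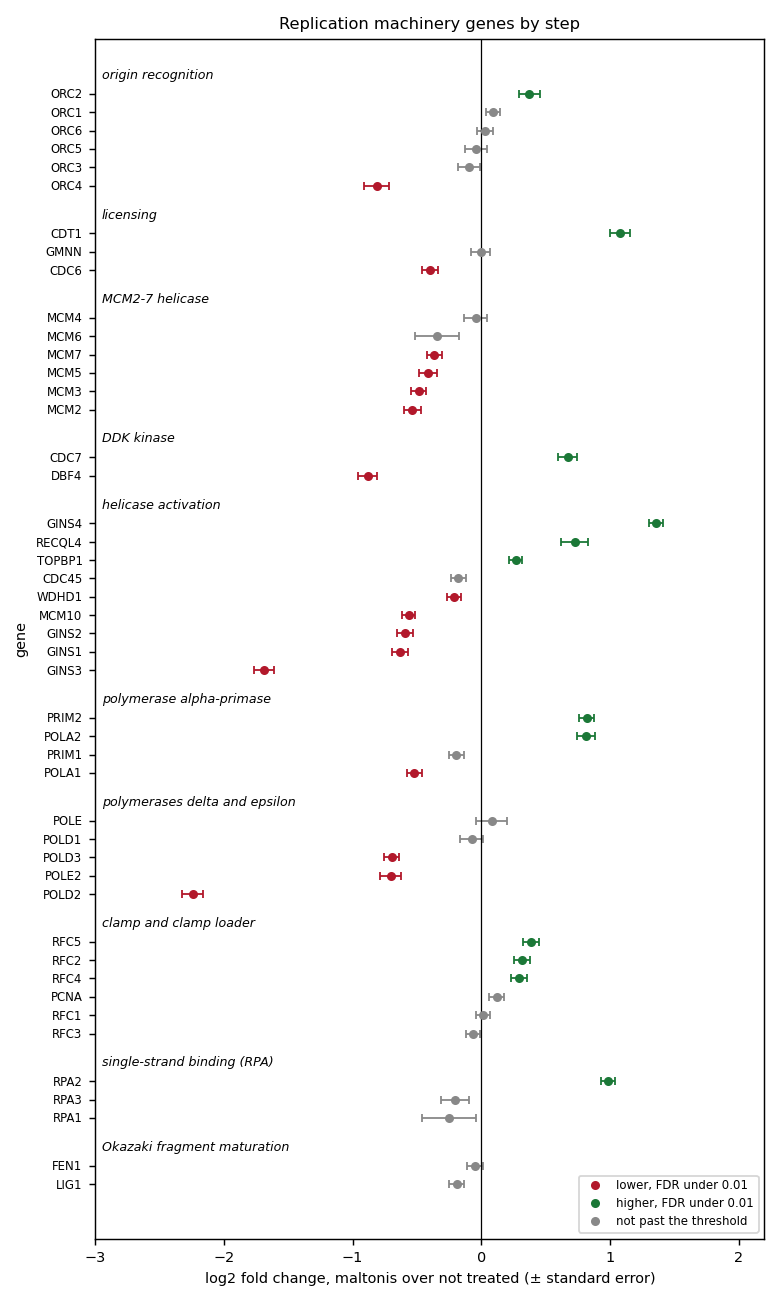
Log2 fold change (maltonis over not treated, x axis) of the 46 genes (y axis), grouped by the step of replication they serve. Points are edgeR estimates from 3 libraries per group, bars are standard errors, red and green mark genes that were lower or higher with an FDR under 0.01, and under TMM scaling most steps hold genes on both sides of 0, with POLD2 (−2.24) and GINS4 (1.36) at the ends.

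Of the 6 ORC subunits, 1 was downregulated, 1 was upregulated and 4 did not pass the threshold. Among all genes tested, 32.1% were lower and 31.9% higher, and no step was tested as a set. ORC4, an ATPase subunit, was at 67.8, 71.8 and 69.0 CPM in n.t. and at 33.8, 40.9 and 43.9 CPM in maltonis-treated cells. All maltonis-treated libraries lay below all n.t. ones, and the log2 fold change was −0.81 (SE 0.0961, edgeR FDR 6.89e-05). ORC2, another core subunit, was at 65.2, 74.3 and 76.7 CPM in n.t. and at 87.2, 93.8 and 99.1 CPM in treated cells, again without overlap and with a log2 fold change of 0.37 (SE 0.08, edgeR FDR 0.00258). That call was lost when maltonis replicate 2 (0.35) or maltonis replicate 3 (0.30) was left out. The log2 fold changes of ORC1, ORC3, ORC5 and ORC6 lay between −0.10 and 0.09, with SEs between 0.0553 and 0.0863. Counted as reads, ORC2 over ORC4 was 1.03 in n.t. and 2.37 in maltonis-treated cells (geometric means of 3 libraries).

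The licensing factors went separate ways. CDT1, which brings the helicase to the origin, was at 176, 199.96 and 198 CPM in n.t. and at 441, 388 and 383 CPM in maltonis-treated cells. It was upregulated 2.11-fold (log2 fold change 1.08, SE 0.0786, edgeR FDR 3.42e-06), and every treated library lay above every n.t. one. GMNN, which encodes geminin, the inhibitor of CDT1, was at 116, 101 and 102 CPM in n.t. and at 104, 101 and 111 CPM in treated cells, with overlapping groups and a log2 fold change of −0.01 (SE 0.0731). CDC6, the ATPase that works with ORC in loading, was at 155, 146 and 146 CPM in n.t. and at 108, 118 and 114 CPM in treated cells, without overlap, and was downregulated by 0.40 on the log2 scale (a log2 fold change of −0.40, SE 0.0597, edgeR FDR 0.000306). The read ratio of CDT1 to GMNN was 1.52, 1.98 and 1.95 in the n.t. libraries and 4.24, 3.83 and 3.44 in the treated ones. The ratio of CDT1 to CDC6 went from 1.28 to 3.56 (geometric means).

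The 6 genes of the MCM2-7 helicase all had negative log2 fold changes, between −0.54 and −0.04, under TMM scaling, while that of MCM4 turned to 0.07 with total counts and 0.04 with upper quartile scaling. MCM2, MCM3, MCM5 and MCM7 were downregulated, while MCM4 and MCM6 did not pass the threshold, beside 32.1% lower among all genes tested. MCM2 was at 739, 694 and 641 CPM in n.t. and at 491, 473 and 467 CPM in maltonis-treated cells, without overlap, with a log2 fold change of −0.54 (SE 0.0662, edgeR FDR 9.06e-05). MCM3, MCM5 and MCM7 had log2 fold changes of −0.49 (SE 0.056), −0.41 (SE 0.0678) and −0.36 (SE 0.0596), and their groups did not overlap either. MCM4 was at 559.6, 675 and 694 CPM in n.t. and at 591, 633 and 646 CPM in treated cells, where the n.t. range enclosed the treated libraries and the log2 fold change was −0.04 (SE 0.0871). MCM6 was at 415, 597 and 642 CPM in n.t. and at 356, 469.7 and 477 CPM in treated cells. Its groups overlapped because replicate 1 was the lowest library of both, and its log2 fold change of −0.34 (SE 0.169, edgeR FDR 0.0938) missed the threshold. MCM6 was singled out after its values were seen: with the code B libraries alone (replicates 2 and 3) it was lower by −0.39 on the log2 scale (edgeR FDR 8.4e-05), and it was also called with the library code as a term (edgeR FDR 0.000214). An antisense gene overlaps 30.7% of the exon bases of MCM2, and AP4M1 on the opposite strand overlaps 10.7% of those of MCM7. The summed level of the 6 genes was 4291, 4423 and 4306 CPM in n.t. and 3325, 3404 and 3429 CPM in treated cells.

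The subunits of DDK, which phosphorylates the loaded helicase, moved in opposite directions. CDC7, the kinase, was at 64.0, 63.8 and 63.0 CPM in n.t. and at 91.4, 104 and 108 CPM in maltonis-treated cells, and was upregulated 1.59-fold (log2 fold change 0.67, SE 0.073, edgeR FDR 4.02e-05). DBF4, a regulatory subunit that activates CDC7, was at 77.2, 70.9 and 69.6 CPM in n.t. and at 38.7, 37.6 and 41.7 CPM in treated cells, a log2 fold change of −0.88 (SE 0.072, edgeR FDR 6.65e-06). Neither gene had overlapping groups. DBF4B, the other known activator of CDC7, had a log2 fold change of −0.09 (SE 0.0891, edgeR FDR 0.367). The read ratio of CDC7 to DBF4 lay between 0.830 and 0.904 in n.t. and 2.36, 2.78 and 2.59 in treated libraries.

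Among the 9 genes of helicase activation, 5 were downregulated and 3 were upregulated, beside 32.1% lower and 31.9% higher among all genes tested. CDC45 did not pass the threshold (log2 fold change −0.18, SE 0.0574, edgeR FDR 0.0193), but did with the library code as a term (edgeR FDR 0.00939). The genes with the most extreme changes both encode subunits of GINS, the heterotetramer that completes the CMG helicase. GINS3 was at 47.6, 46.9 and 43.4 CPM in n.t. and at 14.0, 15.003 and 13.7 CPM in maltonis-treated cells, so that all treated libraries lay far below the n.t. ones. Its log2 fold change was −1.69 (SE 0.0756, edgeR FDR 2.38e-07). GINS4 was at 39.2, 38.6 and 38.5 CPM in n.t. and at 97.4, 99.7 and 101 CPM in treated cells, an upregulation of 2.56-fold (log2 fold change 1.36, SE 0.0559, edgeR FDR 1.63e-07). GINS1 and GINS2 were downregulated with log2 fold changes of −0.63 (SE 0.0591) and −0.59 (SE 0.0597). The read ratio of GINS4 to GINS3 was thus between 0.822 and 0.887 in the n.t. libraries and between 6.64 and 7.33 in the treated ones. An antisense gene of the annotation overlaps 30.2% of the exon bases of GINS4 and another overlaps 16.5% of those of GINS3, and the strand setting of the counting is not given in the sources used here.

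The other genes of this step changed less. MCM10, needed for the activation of the helicase, was downregulated with a log2 fold change of −0.56 (SE 0.0535). WDHD1, which ties the helicase to polymerase alpha, was downregulated with a log2 fold change of −0.21 (SE 0.0548, edgeR FDR 0.00667), a call that was lost without n.t. replicate 2 (−0.23), n.t. replicate 3 (−0.23), maltonis replicate 2 (−0.25) or maltonis replicate 3 (−0.25). RECQL4, a RecQ family helicase, was upregulated with a log2 fold change of 0.73 (SE 0.106). TOPBP1, a scaffold of initiation and of ATR signaling, was upregulated with a log2 fold change of 0.27 (SE 0.0515, edgeR FDR 0.00139), and lost the call without n.t. replicate 2 (0.25) or maltonis replicate 2 (0.24).

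**Figure D2:**
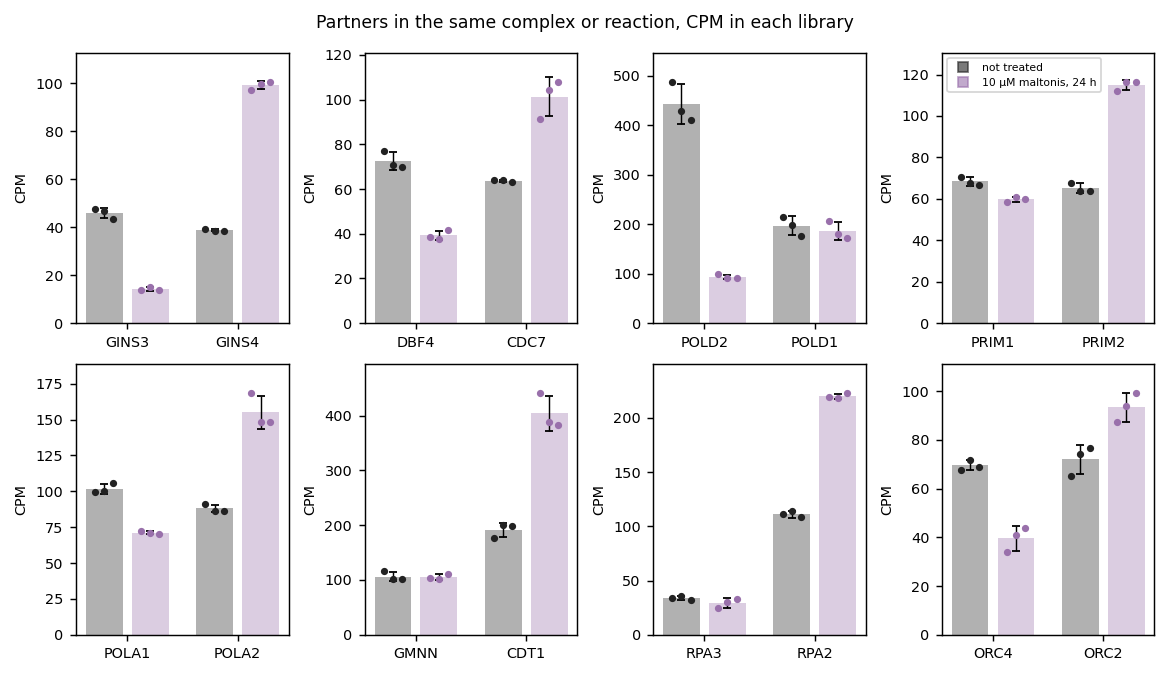
CPM (y axis, from 0) in each library for 8 pairs of genes that work in the same complex or reaction, not treated in grey and 10 µM maltonis in purple. Points are libraries, bars are means and error bars are SDs (n = 3): in each panel the gene on the right is higher relative to its partner after maltonis, with the read ratio of GINS4 to GINS3 going from 0.844 to 6.97. CPM are not per length, so bars of different genes are not compared, and the pairs were chosen after their values were seen.

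Polymerase alpha-primase showed the same kind of split. POLA1, the catalytic polymerase subunit, was at 99.4, 100.3 and 106 CPM in n.t. and at 72.4, 70.7 and 70.2 CPM in maltonis-treated cells, without overlap (log2 fold change −0.52, SE 0.0566, edgeR FDR 4.09e-05). PRIM2, the large primase subunit, was at 67.8, 64.0 and 63.8 CPM in n.t. and at 112, 117 and 116 CPM in treated cells, also without overlap (log2 fold change 0.82, SE 0.0571, edgeR FDR 2.58e-06). POLA2, the accessory subunit, was upregulated with a log2 fold change of 0.82 (SE 0.0685), although 53.7% of its exon bases are shared with an annotated gene on the same strand that has no row in the count tables, so its reads cannot be assigned to it alone. PRIM1, the catalytic primase subunit, did not pass the threshold (log2 fold change −0.19, SE 0.0584, edgeR FDR 0.0148) but did with the library code as a term (edgeR FDR 0.00688), and it shares 26% of its exon bases with another gene in the same way. Between n.t. and treated cells, the read ratio of POLA2 to POLA1 went from 0.864 to 2.18 and that of PRIM2 to PRIM1 from 0.953 to 1.92 (geometric means).

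For polymerases delta and epsilon, 3 of 5 genes were downregulated and none was upregulated, beside 32.1% lower and 31.9% higher among all genes tested. POLD2, an accessory subunit of polymerase delta, had the largest change of the 46 genes. It was at 488, 428 and 411 CPM in n.t. and at 98.8, 90.5 and 91.1 CPM in maltonis-treated cells, 4.73-fold lower (log2 fold change −2.24, SE 0.0802, edgeR FDR 8.49e-08), and the groups lay far apart. Processed pseudogenes are annotated for POLD2, DBF4, PCNA, RFC3, RFC5, RPA2 and FEN1. Of these pseudogenes, only PCNAP1 has a row in the count tables, and how the counting treated shared reads is not known. POLD1, the catalytic subunit of the same polymerase, had a log2 fold change of −0.08 (SE 0.0926) with overlapping groups, and POLD3, another accessory subunit, was downregulated (−0.70, SE 0.0608). The read ratio of POLD1 to POLD2 was 0.440, 0.464 and 0.429 in n.t. libraries and between 1.89 and 2.09 in treated ones (reads, not per length). POLD1 shares 11.6% of its exon bases with an annotated gene on the same strand that has no row in the count tables. POLE, the catalytic subunit of polymerase epsilon, was at 255, 345 and 367 CPM in n.t. and at 349.6, 345 and 329.6 CPM in treated cells, with overlapping groups, replicate 1 apart in n.t. cells, and a log2 fold change of 0.08 (SE 0.121). POLE2, its accessory subunit, was downregulated with a log2 fold change of −0.70 (SE 0.0791, edgeR FDR 4.97e-05).

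Neither the clamp nor its loader held a downregulated gene. The shares among all genes tested were 32.1% lower and 31.9% higher. PCNA, the sliding clamp that tethers the polymerases, was at 388, 398 and 370.2 CPM in n.t. and at 398, 427 and 432 CPM in maltonis-treated cells. These groups came as close as 398 CPM and overlapped, and the log2 fold change of 0.12 (SE 0.0593, edgeR FDR 0.0946) missed the threshold. Of the 5 RFC genes, RFC2, RFC4 and RFC5 were upregulated and RFC1 and RFC3 did not pass the threshold. RFC5 was at 137, 126 and 122 CPM in n.t. and at 161, 172 and 170.3 CPM in treated cells, without overlap (log2 fold change 0.39, SE 0.0638, edgeR FDR 0.000541). RFC3 was at 106, 101 and 101 CPM in n.t. and at 95.9, 98.2 and 100.2 CPM in treated cells, a log2 fold change of −0.07 (SE 0.0555, edgeR FDR 0.297) that missed the threshold although the libraries did not overlap. RFC2 and RFC4 had log2 fold changes of 0.32 (SE 0.0617) and 0.29 (SE 0.0626), and RFC1, the large subunit, had 0.01 (SE 0.0552). The call of RFC4 was lost without n.t. replicate 3 (0.27), maltonis replicate 2 (0.26) or maltonis replicate 3 (0.23).

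Of the RPA subunits, which coat single-stranded DNA, only RPA2 passed the threshold, beside 32.1% lower and 31.9% higher among all genes tested. RPA2, the middle subunit and a target of checkpoint kinases, was at 111, 114 and 108 CPM in n.t. and at 219, 218 and 222 CPM in maltonis-treated cells, 1.98-fold higher (log2 fold change 0.99, SE 0.0523, edgeR FDR 5.6e-07). RPA1, the large subunit, was at 70.0, 111 and 125 CPM in n.t. and at 68.2, 98.4 and 90.9 CPM in treated cells. Replicate 1 was the lowest library of both groups, the groups overlapped, and the log2 fold change of −0.25 (SE 0.208, edgeR FDR 0.298) did not pass the threshold. RPA1 was called with the code B libraries alone (log2 fold change −0.32, edgeR FDR 0.00171), a choice made after its values were seen. It was not called with the code as a term (−0.23, edgeR FDR 0.0125) or without n.t. replicate 1 (−0.47, edgeR FDR 0.0106). RPA3, the small subunit, had −0.21 (SE 0.108). The enzymes of Okazaki fragment maturation did not pass the threshold: LIG1, the ligase, was at 307, 317 and 298 CPM in n.t. and at 285, 267 and 257 CPM in treated cells, without overlap (log2 fold change −0.19, SE 0.0603, edgeR FDR 0.0181). LIG1 was called lower with the library code as a term (edgeR FDR 0.00536) and with DESeq2 (adjusted p 0.00816). FEN1, the flap endonuclease, was at 267, 271 and 253 CPM in n.t. and at 241, 261 and 262 CPM in treated cells, with overlap (−0.05, SE 0.0596).

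Levels of different genes were compared per kilobase of exon, which was possible for 45 of the 46 genes (RFC5 had no length). In n.t. cells, MCM7 was the most abundant at 377 ± 20.2 CPM per kilobase (SD, n = 3), followed by PCNA at 262 ± 9.67, MCM3 at 224 ± 9.98, POLD2 at 192 ± 17.5 and MCM2 at 191 ± 13.6. The last 2 did not differ beyond their spread. At the other end stood GINS4 at 10.1 ± 0.0988 and ORC4 at 10.1 ± 0.294 CPM per kilobase, which did not differ either. After maltonis, MCM7 was at 293 ± 3.67 and PCNA at 285 ± 12.5 CPM per kilobase, so that the gap was smaller than the SD of PCNA and larger than that of MCM7. POLD2 had come down to 40.7 ± 2.02 CPM per kilobase, and CDT1 had gone up from 59.0 ± 4.13 to 125 ± 9.82. The lowest levels per length were then those of ORC4 at 5.74 ± 0.755 and GINS3 at 5.96 ± 0.28, which did not differ beyond their spread.

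**Figure D3:**
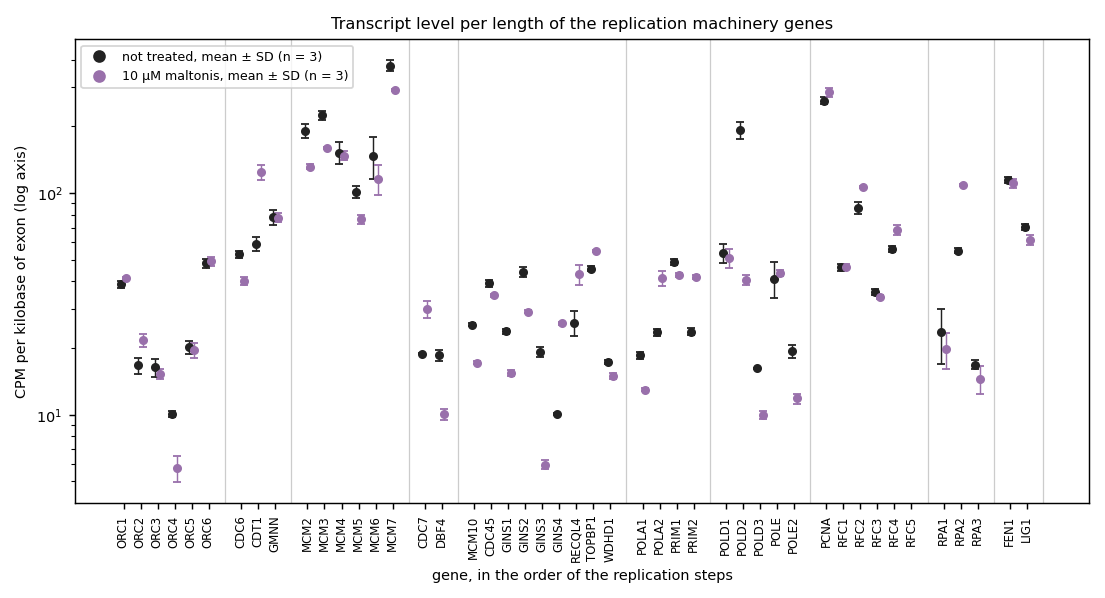
Level per length (CPM per kilobase of exon, log axis) of the genes in the order of the replication steps, which grey lines separate. Points are means and bars SDs of 3 libraries, not treated in black and 10 µM maltonis in purple: MCM7, PCNA and MCM3 stand highest in both groups, while POLD2 goes from 192 to 40.7 and GINS3 from 19.2 to 5.96. RFC5 has no length and no point.

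When the 39 genes with a promoter window were divided by the E2F words shown above, the 12 with a word held 4 downregulated and 2 upregulated genes and 6 that did not pass the threshold, with a median log2 fold change of −0.14. The 27 without a word held 10 downregulated, 7 upregulated and 10 other genes, with a median of −0.08. Beside 32.1% lower and 31.9% higher among all genes, the counts of lower genes in both sets lay near the background. Those of upregulated genes (2 of 12 and 7 of 27) lay below it, and no difference between the sets or from the background was tested. The 12 include CDT1 and POLA2 among the upregulated genes and GINS2, POLA1, MCM3 and MCM7 among the downregulated ones. PCNA, POLE, RFC3, ORC3, LIG1 and MCM6 carry a word and did not pass the threshold, and MCM6 held 4 matches in overlapping pairs. GINS3 and POLD2, the genes with the largest falls, had no word in the window, and GINS4 had no promoter entry. A match of letters is a description of the window, not evidence of binding, and no binding was measured here.

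**Figure D4:**
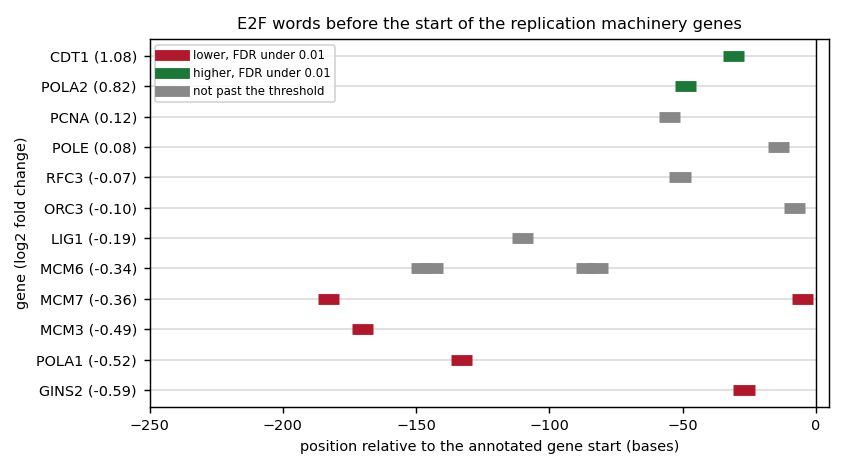
Position of the E2F words (colored blocks of 8 bases) within the 250 bases before the annotated start (x axis, bases) of the 12 genes that hold one, sorted by log2 fold change, which stands in parentheses after each symbol. Red and green mark genes lower or higher after maltonis with an FDR under 0.01, grey marks the others: words near the start occur in genes of all 3 colors.

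A second list of 48 accessory genes of replication was read from the same fit, and all 48 passed the filter on low counts. Of these, 13 were lower, 13 were higher and 22 did not pass the threshold, with a median log2 fold change of −0.05. The shares of 27.1% lower and 27.1% higher lay near the 32.1% and 31.9% of all genes tested. The largest falls were those of RNASEH2C, a subunit of the RNase H2 that removes ribonucleotides from DNA, and ASF1A, a histone H3-H4 chaperone. RNASEH2C was at 92.9, 87.9 and 77.0 CPM in n.t. and at 14.8, 14.7 and 14.4 CPM in maltonis-treated cells (log2 fold change −2.55, SE 0.0865, edgeR FDR 6.56e-08). ASF1A was at 81.9, 89.1 and 88.1 CPM in n.t. and at 13.5, 16.8 and 18.3 CPM in treated cells (−2.41, SE 0.108, edgeR FDR 2.39e-07), while its paralog ASF1B was at 93.8, 87.8 and 86.4 against 180.0, 166 and 160.4 CPM (0.92, SE 0.066, edgeR FDR 3.15e-06). The pair of histone chaperones thus differed in direction, and none of these groups overlapped. SKP2, the ubiquitin ligase subunit that recognizes CDT1 and p27, had 169, 165 and 162 CPM in n.t. and 72.0, 74.1 and 78.8 CPM in treated cells (−1.14, SE 0.0587). MCMBP, which binds MCM proteins, had 256, 254 and 240.5 CPM in n.t. and 124, 123 and 124 CPM in treated cells (−1.02, SE 0.0533).

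The largest rise among the accessory genes was that of POLD4, the smallest subunit of polymerase delta, at 10.1, 8.58 and 9.17 CPM in n.t. and 32.0, 26.5 and 26.2 CPM in maltonis-treated cells (log2 fold change 1.61, SE 0.108, edgeR FDR 2.05e-06). Within polymerase delta, POLD4 was thus higher and POLD2 and POLD3 lower, with no overlap of the groups. LRWD1, also known as ORCA, which binds ORC, had 103, 81.1 and 70.4 CPM in n.t. and 198, 180.1 and 166 CPM in treated cells (1.10, SE 0.132). DSCC1, a subunit of the alternative clamp loader, had 28.6, 33.9 and 29.8 CPM in n.t. and 52.8, 58.7 and 61.7 CPM in treated cells (0.91, SE 0.0907). By group, and beside the same background, the other polymerase, loader and helicase subunits held 3 lower and 6 higher of 15 genes, and fork protection with flap or RNA removal held 4 lower and 2 higher of 10. Histone and DNA methylation maintenance held 1 lower and 2 higher of 7, dNTP supply 1 lower and 1 higher of 7, and S phase entry and licensing control 4 lower and 2 higher of 9.

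**Figure D5:**
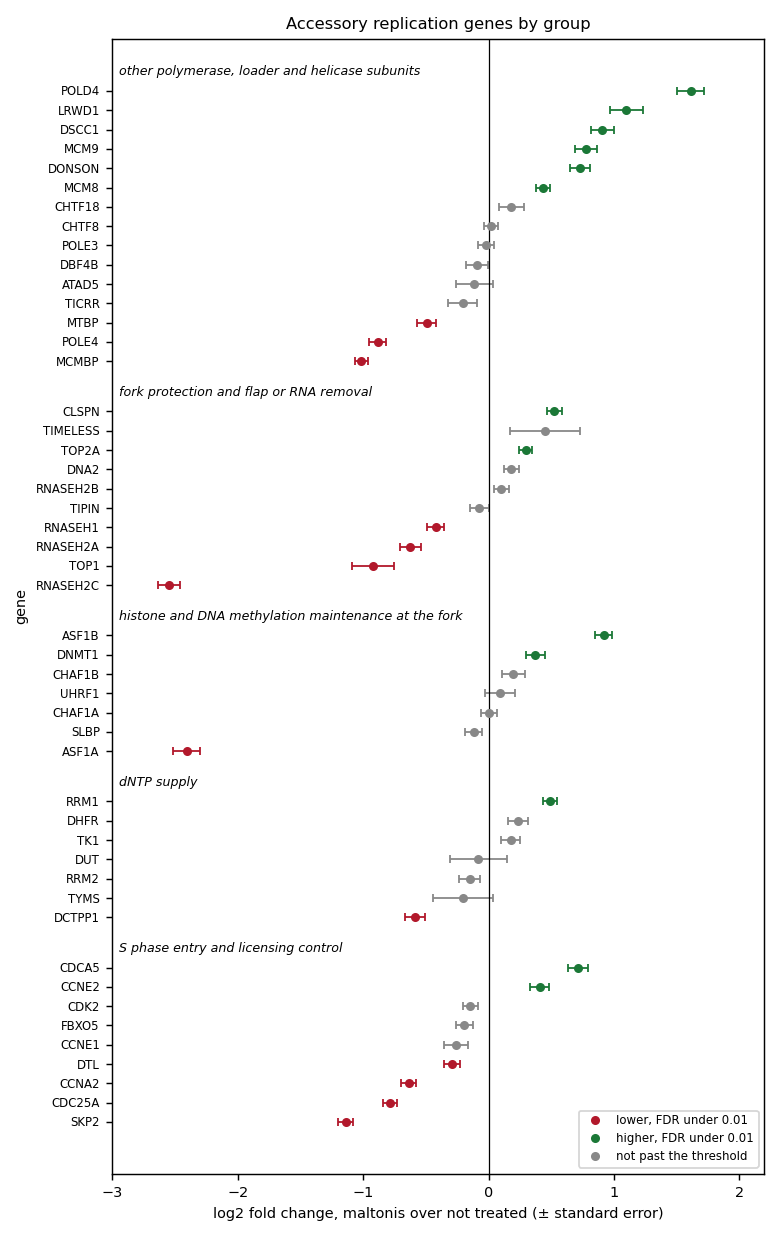
Log2 fold change (maltonis over not treated, x axis) of the 48 accessory replication genes (y axis) in 5 groups. Points are edgeR estimates from 3 libraries per group, bars are standard errors and colors mark calls at an FDR under 0.01, with RNASEH2C (−2.55) and ASF1A (−2.41) far to the left and POLD4 (1.61) at the right end.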

How the data were processed

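RNA-seq counts of 6 libraries, 3 not treated and 3 exposed to maltonis (10 µM, 24 h), were used. The authors deposited whole-number counts of reads per gene symbol without normalization, made from stranded total RNA libraries. The submitters' processing notes name TopHat, Bowtie2, HTSeq and hg19. Versions, annotation and strand setting are not given in the sources used here, so overlapping, antisense and pseudogene reads are uncertain. The 46 genes and the second list of 48 were chosen with earlier results of these data known.

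The main test was that of edgeR 4.0.16 under R 4.3.3 (TMM scaling, filterByExpr, quasi-likelihood test over all 6 libraries, Benjamini-Hochberg adjustment over 13209 genes, FDR under 0.01). Each standard error (SE) was derived from this test, as the size of the log2 fold change divided by the square root of the F statistic. The study is described as using biological triplicates, and the labels name no separate cultures, so p-values measure the spread between these libraries. Pairwise chi-square values per degree of freedom between replicates were 4.15 to 33.1, a spread beyond counting error, and each library was counted as its own sample. These values cannot show whether the libraries came from separate cultures. The test recovered 195 of 200 changed genes (97.5%) in simulated counts of 13143 genes. The simulated log2 changes were 1 or more in size, with the same dispersion for all genes and no effect of the library code. Of the 46 genes, 42 had smaller changes, and the recovery of such changes was not tested. Lengths are merged exons of RefSeq-linked GENCODE transcripts, with all exons as an alternative, and TICRR was read as C15orf42. Some cell type markers are not reported here. Values in every library are given for the genes with the largest fall and rise of each step, for log2 fold changes of 1 or more, and for PCNA, CDT1 and GMNN. Alternatives covered the scaling (upper quartile, total counts or DESeq2 size factors), DESeq2 1.42.0 as the test, no filter, the replicate block, the library code, each library left out and an FDR of 0.05. The fit of code B libraries alone and the all-exon lengths were chosen after seeing the data. Promoter words were searched in Python 3.11.15 with pandas 2.3.3.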

Additional observations from a re-analysis of the deposited data

How the results depend on the processing

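Over the alternatives, 15 to 20 of the 46 genes were lower and 9 to 14 higher, against 16 and 12 in the fit as reported, and no called gene changed direction. An FDR under 0.05 gave 19 lower and 12 higher. The median log2 fold change of the 46 genes was −0.09. It was 0.033 with total counts and 0.00091 with upper quartile scaling, where the median of all genes tested moved to 0.13 and 0.10, so both medians moved together. It lay between −0.137 and −0.102 with a library left out. Total counts gave 15 lower and 14 higher, with ORC1 and PCNA called higher and WDHD1 lost. WDHD1 was also lost with the upper quartile, LIG1 and PRIM1 were gained with the DESeq2 test, and CDC45, LIG1, PRIM1 and MCM6 with the library code as a term. MCM6 was called lower without n.t. replicate 1 and LIG1 without maltonis replicate 1. Accessory genes were lower in 12 to 17 and higher in 11 to 17 cases. With all annotated exons in place of the RefSeq-linked ones, MCM7 had 314 CPM per kilobase in n.t. cells, PCNA 262 and POLD2 120. Replicate numbers are shared by both groups, and the correlation of same-numbered libraries' deviations was 0.301, 0.0852 and 0.161, so the numbers were not taken as pairs. Replicate 1 of either group (code A) correlated at −0.232 to −0.162 with the code B libraries of the other group. Its deviations were thus partly shared by both groups, and the main fit holds no term for the code. With the replicate block, 17 of the 46 genes were lower and 12 higher (median −0.08), with MCM6 gained and RPA1 still not called (edgeR FDR 0.0214), and n.t. replicate 2 correlated better with maltonis replicate 3 (0.123) than with its own number. Depth was not limiting, since the lowest count was 271.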

Other observations

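Replicate 1, the only library of each group with code A, stood apart for some accessory genes too, and the meaning of the code is not stated. TIMELESS, which protects stalled forks, was at 86.6, 167 and 199 CPM in n.t. and at 155, 232 and 233 CPM in maltonis-treated cells, so that replicate 1 was the lowest of both groups and the log2 fold change of 0.45 (SE 0.278, edgeR FDR 0.172) did not pass the threshold. TYMS, the thymidylate synthase, was at 33.0, 60.6 and 67.9 CPM in n.t. and at 37.5, 52.7 and 50.2 CPM in treated cells. DUT, which removes dUTP, was at 84.4, 175 and 156 CPM in n.t. and at 114, 141 and 139 CPM in treated cells. These genes were chosen after their values were seen.

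In the same promoter windows of 250 bases, CCAAT was found on either strand in 51.3% of the 39 matched genes of the machinery, in 50% of 40 accessory genes and in 33% of all promoters. The E-box CACGTG was found in 10.3%, 12.5% and 6.49%, and the E2F words in 15% of the accessory genes. MCM2, MCM7, FEN1 and RPA1 were the genes of the machinery with an E-box.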
